A study of Mus musculus with 6 samples.

Results

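The genes described here are 36 that act in the early secretory pathway of the liver, from the docking of a ribosome at the endoplasmic reticulum (ER) to the COPII coat that carries finished proteins out of it. They were chosen by name, with earlier results of these data known. All 36 were matched by Ensembl identifier to the count tables and found among the 55471 gene lines. By role they comprised 6 genes of the signal recognition particle (SRP) and its receptor, 5 of the Sec61 channel, 4 of the TRAP complex, 5 of the signal peptidase, 6 of the oligosaccharyltransferase and 10 of the COPII coat. RNA sequencing of liver compared wild-type male C57BL/6J mice, a common inbred strain, after a fast of 16 h with others after a fast of 4 h. Each group held 3 mice with 1 library each, and both groups shared genotype, sex, strain and tissue. Age is not given in the sources used here. Cholesterol transport that does not rely on vesicles is the subject of the series, and these libraries ask how liver transcripts differ between a long and a short fast.

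Hepatocytes secrete most of the proteins of blood plasma, and nearly all of them enter the ER while they are being made. SRP binds the signal sequence and brings the ribosome to the membrane, the Sec61 channel passes the chain through, the signal peptidase removes the signal sequence and the oligosaccharyltransferase attaches a preassembled sugar chain to asparagine. COPII then forms vesicles, or larger carriers for bulky cargo such as lipoprotein particles, that leave for the Golgi.

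Between 15173653 and 26572532 reads per library were assigned to genes. Of 13812 genes with enough counts to be tested, edgeR's quasi-likelihood test called 18.7% at an adjusted p under 0.05, with 9.18% higher and 9.51% lower after 16 h, and the median log2 fold change of all tested genes was -0.028. Alb, the albumin gene, was the most abundant hepatocyte marker, with 5.30% to 6.97% of gene counts, and was not called. Of the 7 hepatocyte markers edgeR called 3, with Ttr lower (-0.91 ± 0.13, adjusted p = 0.000647) and Cps1 (0.85 ± 0.17, 0.00573) and Hnf4a (0.77 ± 0.13, 0.00239) higher after 16 h. Replicate 3 of the 4 h fast stood apart. It lay at -33.46 on the second principal component, against -5.65 to 26.5 for the other 5 libraries, and its 7 lung markers summed to 186 CPM (counts scaled to a common library size), against 5.76 to 8.44 CPM in the 16 h livers and 5.35 and 6.29 CPM in the other two 4 h livers. Counts over the 36 genes and over the other pathway genes are therefore also given without it, as are those of single groups where they differ. In liver tissue, fewer cells of a type and less RNA per cell cannot be told apart.

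All 36 genes passed the filter on low counts, with at least 223 counts in every library, and their mean levels ran from 20.0 to 231 CPM. After the 16 h fast, 13 of the 36 (36.1%) were lower and 3 (8.33%) were higher by edgeR, against 9.51% and 9.18% of all tested genes, and 20 did not pass the test. The groups did not overlap for 20 of the 36 (55.6%), against 39.4% of all tested genes. In 16 of them (44.4%) the 16 h livers were the lower group and in 4 (11.1%) the higher one, against 19.7% of all tested genes in each direction. The median log2 fold change was -0.23. As the 36 were listed with earlier results of these data known, these shares describe the list only. All 13 falls were among the 26 genes that act before export, where the median was -0.36. The 10 COPII genes had a median of 0.03, with 2 genes higher and none lower. Without replicate 3 of the 4 h fast, 12 of the 36 were called lower and 3 higher. Without 16 h replicate 1, 2 or 3, the counts called lower were 6, 5 and 7, with 0 called higher each time, and without 4 h replicate 1 they were 8 lower and 3 higher.

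**Figure D1:**
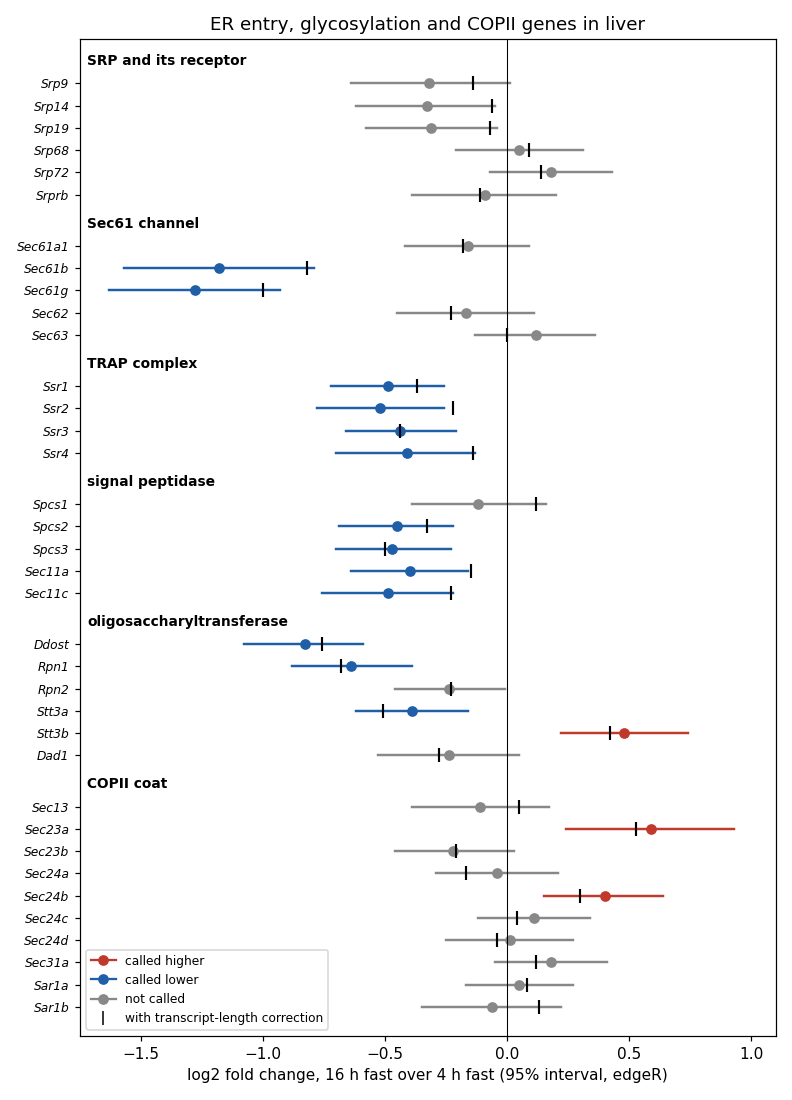
Log2 fold change, 16 h over 4 h fast, of the 36 genes on the x axis, with 95% intervals from edgeR as bars, ordered by complex. Blue points were called lower, red points higher and grey points did not pass the test, and black ticks give the value after correction for transcript length. All 4 TRAP genes lie left of 0, while Stt3b, Sec23a and Sec24b lie right of it.

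Summed levels describe each complex as a whole. TRAP transcripts summed to 378.7 ± 10.2 CPM after 16 h, against 520.0 ± 20.9 CPM after 4 h (SD, n = 3 each), which is 72.8% of the 4 h level. Signal peptidase transcripts stood at 76.1% of it (221.2 against 290.8 CPM), oligosaccharyltransferase transcripts at 80.9% (565.2 against 699.0 CPM) and the 5 genes of the Sec61 group at 88.4% (519.1 against 587.0 CPM), and in each of these sums every 16 h liver lay below every 4 h liver. Most of the Sec61 sum was Sec62 (217.1 CPM after 16 h against 244.3 CPM after 4 h) and Sec63 (179.3 against 165.4 CPM). The channel subunits themselves had 89.7 against 100.4 CPM (Sec61a1), 21.4 against 48.5 CPM (Sec61b) and 11.7 against 28.4 CPM (Sec61g). They were not summed alone. The SRP sum reached 95.4% (316.6 against 332.0 CPM) and the COPII sum 106% (953.8 ± 45.8 against 901.9 ± 44.5 CPM), and the groups overlapped in both. These sums were not tested.

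SRP and its receptor gave no called gene, by edgeR or by DESeq2, although 2 genes had an unadjusted p under 0.05, both lower. These were Srp14, which with Srp9 forms the domain that pauses translation, and Srp19, which helps the particle assemble. Srp14 had 26.5, 28.9 and 29.3 CPM in the 16 h livers, against 31.8, 32.1 and 42.8 CPM in the 4 h livers, a log2 fold change of -0.33 ± 0.13 (SE) with an edgeR adjusted p of 0.0997. Srp19 had 16.8, 19.1 and 20.2 CPM after 16 h, against 20.9, 23.7 and 25.2 CPM after 4 h (-0.31 ± 0.12, edgeR adjusted p = 0.1). Both genes had groups that did not overlap, though by small gaps. They were the only such genes of the 6 (33.3%), against 39.4% of all tested genes in either direction and 19.7% with lower 16 h groups. The groups of Srp9 just overlapped, with 74.2 CPM in the highest 16 h liver against 74.0 CPM in the lowest 4 h liver (-0.32 ± 0.15, edgeR adjusted p = 0.157). The large scaffold subunits Srp68 (0.05 ± 0.12) and Srp72 (0.18 ± 0.12) and the membrane-anchored receptor subunit Srprb (-0.09 ± 0.13) overlapped too. Of the exon bases of Srprb, 20.71% lie under a predicted gene on the same strand, so its count is uncertain.

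The largest falls of the 36 genes were in the 2 small subunits of the Sec61 channel. Sec61b, which encodes the β subunit and lies at chr4:47474658-47483242 (GRCm38), had 17.3, 24.5 and 22.5 CPM after 16 h, against 38.0, 47.5 and 60.1 CPM after 4 h. Sec61g, the γ subunit that clamps the channel at chr11:16500530-16508484, had 10.4, 13.4 and 11.3 CPM after 16 h, against 23.9, 26.4 and 34.8 CPM after 4 h. In both genes the highest 16 h liver was well below the lowest 4 h liver, and replicate 3 was the highest of the 4 h livers. Sec61b was 2.26-fold lower (log2 fold change -1.18 ± 0.18, edgeR adjusted p = 0.0014) and Sec61g 2.43-fold lower (-1.28 ± 0.16, edgeR adjusted p = 0.000367). Falls of at least 2-fold were called for 3.03% of all tested genes. Both calls held when any 1 library was left out, with log2 fold changes between -1.31 and -0.98 for Sec61b and between -1.38 and -1.09 for Sec61g.

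The pore-forming subunit did not pass the test. Sec61a1 had 90.5, 93.7 and 84.8 CPM after 16 h, against 95.8, 115.5 and 89.9 CPM after 4 h, and the groups overlapped (-0.16 ± 0.12, edgeR adjusted p = 0.359). Its 95% interval, -0.42 to 0.09, does not reach the values of either small subunit. Sec62 and Sec63, which form an auxiliary complex that assists entry of chains after translation, gave -0.17 ± 0.13 and 0.12 ± 0.11 with overlapping groups. Per kilobase of exon, Sec61b stood at 16.9 CPM in the 16 h group and 38.2 CPM in the 4 h group, while Sec61a1 stood at 13.3 and 14.9 CPM, so the order of the 2 subunits was the same in both groups but the gap was narrower after 16 h.

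TRAP sits beside the channel and helps signal sequences that open it poorly. All 4 of its genes were lower after 16 h, with fitted log2 fold changes of -0.52 to -0.41, and none overlapped between groups. Of all tested genes, 9.51% were called lower and 19.7% had lower 16 h groups without overlap. Ssr1, the α subunit, had 78.6, 79.9 and 83.8 CPM after 16 h, against 103.3, 123.3 and 113.9 CPM after 4 h (-0.49 ± 0.11, edgeR adjusted p = 0.0087). Ssr2, the β subunit, had 55.5, 56.2 and 59.1 CPM, against 70.2, 81.2 and 93.2 CPM after 4 h (-0.52 ± 0.12, edgeR adjusted p = 0.0117). In both, the 16 h livers lay within a few CPM of each other and the 4 h livers were spread widely. Ssr3, the γ subunit and one of the most abundant of the 36 transcripts, had 170.1, 166.2 and 173.1 CPM, against 237.2, 239.6 and 213.3 CPM after 4 h (-0.44 ± 0.10, edgeR adjusted p = 0.0132). Ssr4, the δ subunit on the X chromosome, had 65.7, 74.1 and 73.8 CPM, against 85.5, 84.7 and 114.5 CPM after 4 h (-0.41 ± 0.13, edgeR adjusted p = 0.0485).

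These calls were near the threshold in smaller sets of libraries, and without 4 h replicate 3 there were 3 calls among the 4 genes. The edgeR adjusted p of Ssr1 was 0.0504 without 16 h replicate 2, and that of Ssr2 was 0.0553 without 16 h replicate 1 and 0.0608 without replicate 2. For Ssr3 it was 0.0592, 0.0700 and 0.0555 without 16 h replicates 1, 2 and 3, and 0.0508 and 0.0510 without 4 h replicates 1 and 2. For Ssr4 it was 0.172, 0.121 and 0.121 without 16 h replicates 1, 2 and 3, and 0.0502 and 0.0599 without 4 h replicates 1 and 3. Every one of these fits kept the negative sign.

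The signal peptidase has catalytic subunits, encoded by Sec11a and Sec11c, and accessory subunits, encoded by Spcs1, Spcs2 and Spcs3. Both catalytic genes fell. Sec11a had 41.9, 40.7 and 44.4 CPM after 16 h, against 56.6, 49.4 and 61.5 CPM after 4 h (-0.40 ± 0.11, edgeR adjusted p = 0.0276). Sec11c had 20.9, 17.4 and 20.8 CPM, against 28.4, 24.4 and 30.1 CPM after 4 h (-0.49 ± 0.12, edgeR adjusted p = 0.0195). The gap between the groups was narrow in both genes, with replicate 2 the lowest of the 4 h livers. Spcs2 had 66.1, 77.1 and 72.3 CPM, against 93.3, 97.2 and 104.6 CPM after 4 h (-0.45 ± 0.11, edgeR adjusted p = 0.0128). Spcs3, whose yeast counterpart is required for cleavage, had 46.0, 45.2 and 51.5 CPM, against 61.5, 71.7 and 64.5 CPM after 4 h (-0.47 ± 0.11, edgeR adjusted p = 0.0117). Neither accessory gene overlapped between groups. In total 4 of the 5 signal peptidase genes (80.0%) were called lower, against 9.51% of all tested genes.

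Spcs1 stood outside this group of falls. It had 39.2, 38.1 and 42.0 CPM after 16 h, against 38.4, 39.6 and 51.3 CPM after 4 h, and the groups overlapped (-0.12 ± 0.13, edgeR adjusted p = 0.557). Glt8d1 covers 16.3% of its exon bases from the other strand, so its count is less certain than those of the other subunits. Calls of the other 4 were lost in some smaller sets of libraries, all with the sign kept. Without 16 h replicate 1 the edgeR adjusted p was 0.0742 for Spcs2, 0.0630 for Spcs3 and 0.0978 for Sec11a. Without 16 h replicate 2 it was 0.0709 for Spcs3, 0.120 for Sec11a and 0.101 for Sec11c. Without 16 h replicate 3 it was 0.0599 for Spcs2, 0.0744 for Sec11a and 0.0566 for Sec11c, and without 4 h replicate 1 it was 0.0776 for Sec11a and 0.0654 for Sec11c.

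The oligosaccharyltransferase joins 1 of 2 alternative catalytic subunits, STT3A or STT3B, to a set of shared subunits. STT3A works beside the channel as the chain emerges, and STT3B can modify sites that were skipped. The shared subunits Ddost and Rpn1 fell most. Ddost, at chr4:138304730-138312628, had 65.7, 60.9 and 64.7 CPM after 16 h, against 104.0, 107.9 and 129.5 CPM after 4 h, and was 1.78-fold lower (-0.83 ± 0.11, edgeR adjusted p = 0.000621). Rpn1, which positions substrates, had 99.8, 94.3 and 104.9 CPM, against 137.4, 158.3 and 169.1 CPM after 4 h, and was 1.55-fold lower (-0.64 ± 0.11, edgeR adjusted p = 0.00286). With Sec61b and Sec61g, these were the genes whose call held without any 1 of the 6 libraries. Rpn2 had 125.8, 131.5 and 138.5 CPM, against 154.0, 149.6 and 162.8 CPM after 4 h, without overlap (-0.24 ± 0.10, edgeR adjusted p = 0.127). This gene and Dad1 (-0.24 ± 0.13, edgeR adjusted p = 0.227), also shared subunits, did not pass the test.

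**Figure D2:**
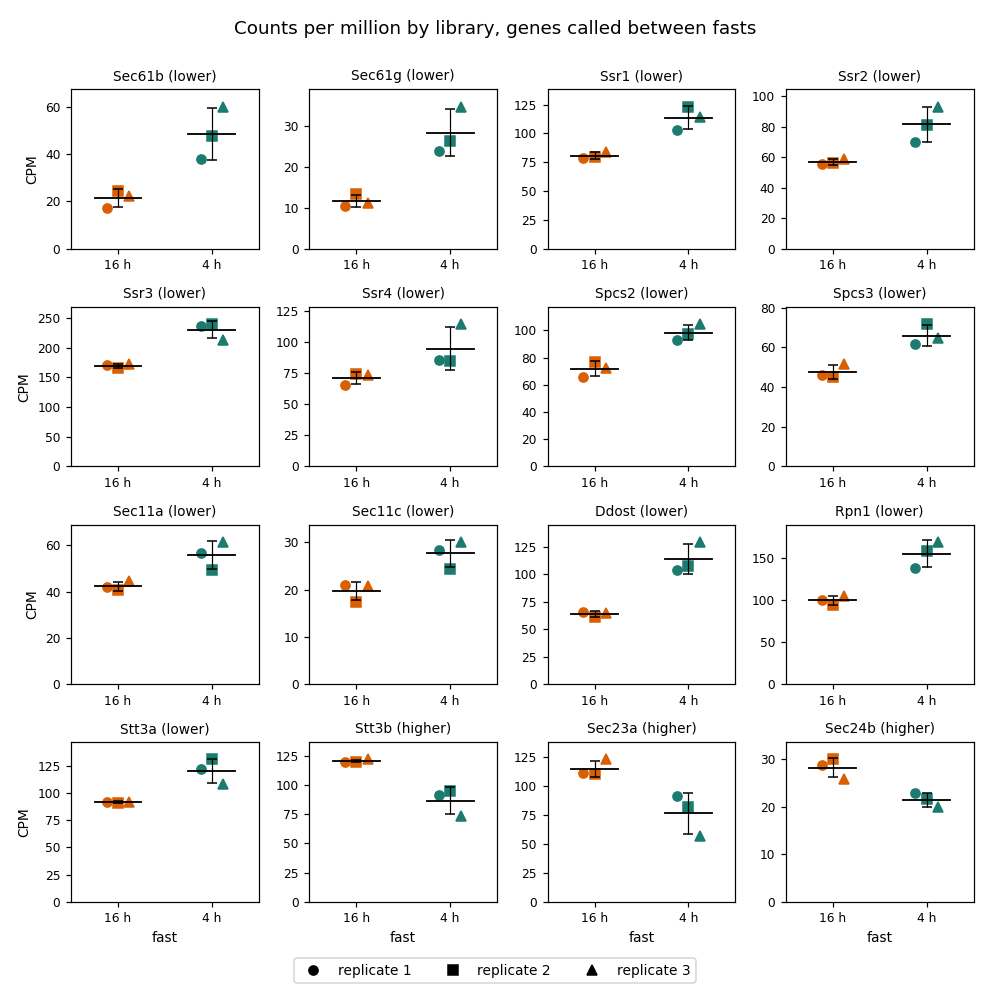
CPM in each library of the 16 genes called between fasts, with the fast on the x axis, a symbol per replicate, a bar for the mean and an error bar for the SD (n = 3 per group). In each panel the 16 h and 4 h livers do not overlap, and Ddost, Stt3a and Stt3b have tightly grouped 16 h livers.

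The 2 catalytic subunits moved in opposite directions. Stt3a had 92.0, 91.0 and 91.9 CPM in the 16 h livers, against 121.7, 130.8 and 108.3 CPM in the 4 h livers (-0.39 ± 0.11, edgeR adjusted p = 0.0255). Stt3b had 120.3, 119.9 and 122.1 CPM in the 16 h livers, against 91.2, 95.3 and 73.3 CPM in the 4 h livers (0.48 ± 0.12, edgeR adjusted p = 0.016). Neither gene overlapped between groups, and the 16 h livers were within 3 CPM of each other in both. Stt3a missed the threshold when 16 h replicate 1, 2 or 3 was left out, with edgeR adjusted p of 0.0917, 0.103 and 0.0966, and when 4 h replicate 1 or 2 was, with 0.0782 and 0.104. Stt3b missed it when 16 h replicate 1, 2 or 3 was left out, with 0.0509, 0.0607 and 0.0645.

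Per kilobase of exon, Stt3a made up 26.5%, 26.4% and 26.2% of the Stt3 transcripts in the 16 h livers, against 38.6%, 39.3% and 41.1% in the 4 h livers. The mean share was 26.4% ± 0.149 after 16 h and 39.7% ± 1.25 after 4 h (SD, n = 3 each), a difference of -13.3 percentage points. A 2-sided exact permutation test gave p = 0.1, the smallest that 3 against 3 allows (adjusted p = 0.2 over the 8 shares compared). The difference lay between -13.8 and -12.6 points when any 1 library was left out, so replicate 3 of the 4 h fast did not decide it. The level of the share depends on the length used. Exon bases were 8948 for Stt3a and 4221 for Stt3b, while the transcripts with the longest coding sequence had 5867 and 4221 bases. Without division by length the difference was -15.1 points.

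The promoters of these genes are shown because the pair moved in opposite directions. Each sequence runs 5′ to 3′ from 250 bases before to 50 bases after the RefSeq start on GRCm38.p6, on the minus strand of chromosome 9, at chr9:36767573-36767872 for Stt3a and chr9:115310419-115310718 for Stt3b. Capitals mark the pentamer CCAAT on either strand, a common promoter element, which lies 35 bases before the start of Stt3a and, as ATTGG, 145 bases before that of Stt3b.
Stt3a: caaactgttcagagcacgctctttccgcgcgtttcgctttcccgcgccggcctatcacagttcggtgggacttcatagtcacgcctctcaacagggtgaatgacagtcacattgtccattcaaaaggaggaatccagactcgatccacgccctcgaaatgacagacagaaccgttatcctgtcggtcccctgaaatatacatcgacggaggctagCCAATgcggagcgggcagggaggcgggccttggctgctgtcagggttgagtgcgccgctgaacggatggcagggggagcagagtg
Stt3b: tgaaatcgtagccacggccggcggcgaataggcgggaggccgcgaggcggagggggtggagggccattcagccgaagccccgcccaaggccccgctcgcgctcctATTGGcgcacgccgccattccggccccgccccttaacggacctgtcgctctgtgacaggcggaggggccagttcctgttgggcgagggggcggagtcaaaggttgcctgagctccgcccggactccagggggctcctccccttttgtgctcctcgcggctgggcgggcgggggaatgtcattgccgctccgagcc

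COPII coats begin when the small GTPase SAR1 enters the ER membrane, after which SEC23 and SEC24 form the inner layer and SEC13 and SEC31 the outer one. SEC24 selects cargo, and mice have 4 SEC24 genes. Of the 10 COPII genes measured, 2 rose and 8 did not pass the test (20.0% called, against 18.7% of all tested genes). None was called lower by edgeR or DESeq2, and none had an unadjusted p under 0.05 in that direction. Sec23a, the GTPase-activating subunit at chr12:58958383-59012017, had 111.2, 110.3 and 122.7 CPM after 16 h, against 90.9, 81.6 and 56.7 CPM after 4 h. The groups did not overlap (0.59 ± 0.16, edgeR adjusted p = 0.0234), although the 4 h livers were spread widely (SD 17.7 CPM). Replicate 3 of the 4 h fast was the lowest, and without it the log2 fold change was 0.42 with the call kept. Sec24b had 28.8, 29.9 and 25.9 CPM, against 22.8, 21.6 and 19.9 CPM after 4 h, and was 1.32-fold higher (0.40 ± 0.11, edgeR adjusted p = 0.0304).

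Both calls were lost in some smaller sets of libraries. The edgeR adjusted p of Sec23a was 0.0561, 0.0665 and 0.0930 without 16 h replicates 1, 2 and 3. That of Sec24b was 0.0945, 0.126 and 0.0551 without 16 h replicates 1, 2 and 3, and 0.0542 without 4 h replicate 2. It was also 0.0554 when libraries were scaled by their totals alone.

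The remaining coat genes showed small differences. Sec31a, the outer-layer rod, had 136.8, 145.0 and 147.6 CPM after 16 h, against 129.2, 133.1 and 116.7 CPM after 4 h, so its groups did not overlap although the test was not passed (0.18 ± 0.10, edgeR adjusted p = 0.251). Sec13, the other outer-layer gene, gave -0.11 ± 0.13. Among the cargo selectors, Sec24a gave -0.04 ± 0.11, Sec24c 0.11 ± 0.10 and Sec24d 0.01 ± 0.12. Sec23b gave -0.22 ± 0.11 (edgeR adjusted p = 0.205), on the other side of 0 from its paralog. Sar1a gave 0.05 ± 0.10.

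Sar1b, the SAR1 gene tied to export of lipoproteins, was the most abundant of the coat genes per kilobase of exon, with 164 CPM in the 16 h group and 171 CPM in the 4 h group. It had 186.8, 206.2 and 224.3 CPM in the 16 h livers, against 228.9, 179.2 and 236.6 CPM in the 4 h livers, with wide overlap (-0.06 ± 0.13, edgeR adjusted p = 0.771). The 95% interval was -0.35 to 0.22, the range of changes that these livers leave possible.

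Shares within families set paralogs side by side in the same library. Sec23a made up 81.7%, 81.2% and 80.9% of Sec23 transcripts per kilobase of exon after 16 h, against 74.1%, 71.3% and 67.2% after 4 h. The mean share was 81.2% ± 0.400 after 16 h and 70.9% ± 3.47 after 4 h, a difference of 10.4 points (exact permutation p = 0.1, adjusted p = 0.2), and 8.55 points without replicate 3 of the 4 h fast. The level of this share too depends on length, with 4840 exon bases for Sec23a and 6302 for Sec23b. Their transcripts with the longest coding sequence had 4109 and 2779 bases. Without division by length the difference was 11.7 points. Sec24b stood at 10.2% of its family after 16 h, against 8.18% after 4 h, and Sec24a stood at 22.2%, against 24.0% after 4 h. Neither overlapped between groups (exact permutation p = 0.1 each, adjusted p = 0.2). The shares of Sec24c (37.9% after 16 h and 36.9% after 4 h), Sec24d (29.6% and 30.9%), Sar1a in its pair (a difference of 0.689 points) and Sec11a in its pair (76.1% and 74.9%) overlapped.

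**Figure D3:**
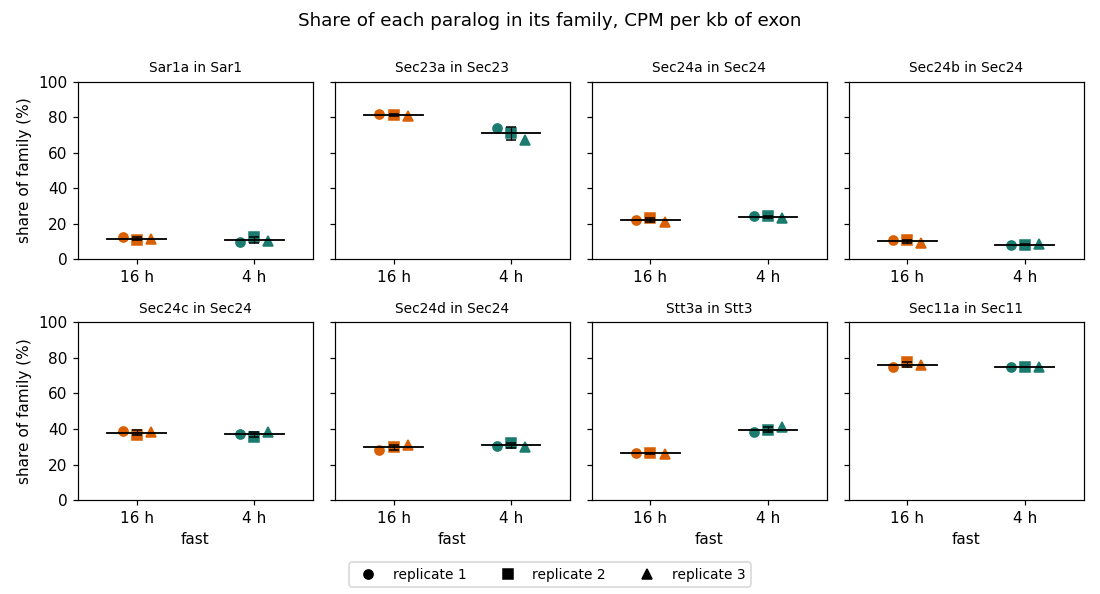
Share of each gene in the summed transcripts of its family (%, CPM per kilobase of exon, y axis) in each library, with a symbol per replicate, a bar for the mean and an error bar for the SD (n = 3 per group). The Stt3a share is 26.4% after 16 h and 39.7% after 4 h, and the Sec23a share 81.2% and 70.9%, with no overlap in either.

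Of the 36 genes, 2 pairs are close on a chromosome. Sec24a (chr11:51692264-51763634, minus strand) and Sar1b (chr11:51763687-51791925, plus strand) are transcribed away from each other, with 52 bases between their annotated starts, and neither was called. Rpn1 and Sec61a1 lie 398274 bases apart on chromosome 6, and of these Rpn1 was called. The window around the Sar1b start, chr11:51763413-51763712 on the plus strand, is shown because it holds the shared start region, with the 52 bases between the GENCODE starts in capitals. The windows of Sec23a (chr12:59011968-59012267, minus strand) and Sec24d (chr3:123267246-123267545, plus strand) are shown because they alone, of the 30 windows matched to the 36 genes, held TGACGTGG, in capitals, a motif bound by XBP1 and ATF6. It begins at base 7 of Sec23a, with the RefSeq start as base 1, and 26 bases before that of Sec24d.
Sar1b: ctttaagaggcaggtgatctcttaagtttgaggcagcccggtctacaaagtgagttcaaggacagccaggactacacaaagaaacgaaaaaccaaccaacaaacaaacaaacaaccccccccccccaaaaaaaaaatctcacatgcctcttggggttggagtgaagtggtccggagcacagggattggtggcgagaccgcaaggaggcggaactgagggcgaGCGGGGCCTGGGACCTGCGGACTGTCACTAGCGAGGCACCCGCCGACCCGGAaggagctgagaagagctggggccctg
Sec23a: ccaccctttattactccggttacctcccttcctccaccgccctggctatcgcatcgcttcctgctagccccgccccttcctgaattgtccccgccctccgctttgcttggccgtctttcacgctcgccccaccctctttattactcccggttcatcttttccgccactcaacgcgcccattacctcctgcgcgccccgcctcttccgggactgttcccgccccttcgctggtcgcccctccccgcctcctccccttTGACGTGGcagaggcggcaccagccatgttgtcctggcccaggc
Sec24d: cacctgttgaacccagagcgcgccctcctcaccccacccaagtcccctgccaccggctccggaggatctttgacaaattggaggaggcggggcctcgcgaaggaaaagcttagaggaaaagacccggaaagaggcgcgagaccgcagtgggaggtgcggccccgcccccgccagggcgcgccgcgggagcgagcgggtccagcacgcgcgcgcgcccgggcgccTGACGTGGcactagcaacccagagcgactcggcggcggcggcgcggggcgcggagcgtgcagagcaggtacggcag

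RefSeq promoter windows of 300 bases were found for 30 of the 36 genes and searched on both strands for motifs of the unfolded protein response, the programme that adjusts ER capacity. The ER stress element, CCAAT and CCACG with any 9 bases between them, was in 0 of 30 windows (0.119% of all 32851 windows), and its second form, ATTGG and CCACG with any 1 base between them, also in 0 of 30 (0.0365% of all). TGACGTGG was in 2 of 30 (6.67%, against 0.676% of all), neither of them in a gene called lower, and in 7 of the 96 (7.29%) windows of other pathway genes. Those windows also held the first ER stress element in Alg12 and Hspa5 and the second in Krtcap2, which was called lower. The cyclic AMP element TGACGTCA was in 0 of the 30 windows and in 5 of the 96 (5.21%), against 1.79% of all. The shorter core ACGTG, which TGACGTGG contains, was in 16 of 30 (53.3%, against 19.6% of all) and in 2 of the 10 matched genes called lower. In the 96 matched windows of the other pathway genes described below it was in 47 (49.0%), and in 9 of the 12 of those genes called lower. CCAAT was in 14 of 30 (46.7%, against 37.4% of all) and in 6 of those 10. The last 2 motifs were chosen after values were seen, as were the windows printed. A match or its absence in these windows describes their letters only.

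Transcript length moved with these differences. Across the 36 genes the log2 fold change correlated with the log2 length of the annotated transcript (Pearson r = 0.61, Spearman rho = 0.62), and across 12291 tested genes more weakly (0.20 and 0.27). Genes share libraries and are not independent replicates, so these are descriptions. Without replicate 3 of the 4 h fast the values were 0.50 and 0.48 for the 36 genes, and 0.09 and 0.14 for all tested genes. Transcripts under 1 kb had a median log2 fold change of -0.303 over 746 tested genes, of which 16.8% were called lower, and 6 of the 8 members in that class were called lower. Transcripts over 4 kb had a median of 0.102 over 3855 genes, of which 5.29% were called lower. Of the 8 members in this class, Stt3b, Sec23a and Sec24b were called higher and Stt3a lower. The share of all genes in this class called higher was not computed, and over all lengths it was 9.18%. At lengths in between, 2 of 6 members of 1 to 2 kb and 4 of 14 of 2 to 4 kb were called lower. Of the tested genes in these 2 classes, 14.7% and 9.68% were called lower. The part of length in the differences was not tested.

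**Figure D4:**
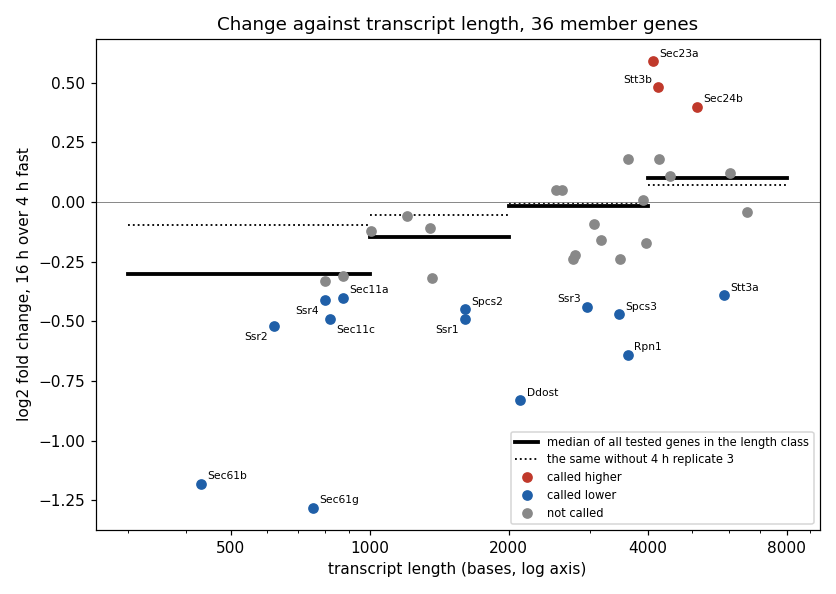
Log2 fold change, 16 h over 4 h fast, of the 36 genes (y axis) against the length of their annotated transcript in bases (x axis, log scale). Solid bars give the median of all tested genes in each of 4 length classes, from -0.303 under 1 kb to 0.102 over 4 kb, and dotted bars the same without replicate 3 of the 4 h fast. Sec61b, Sec61g, Ddost, Rpn1, Ssr3, Spcs3 and Stt3a lie well below the median of their class.

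A fit that removes each library's trend with transcript length, chosen after the data were seen, called the same 3 members higher and 9 lower, all of them among the 13. Over all 13812 tested genes this fit called 1466 higher and 1341 lower. It gave -0.82 for Sec61b (edgeR adjusted p = 0.00201), -1.0 for Sec61g (0.000189), -0.76 for Ddost (0.000212) and -0.68 for Rpn1 (0.00117). Stt3a, a long transcript, was at -0.51 (0.00139) and Stt3b at 0.42 (0.00752). The 4 members that lost their call were short transcripts: Ssr2 (-0.22, edgeR adjusted p = 0.137), Ssr4 (-0.14, 0.259), Sec11a (-0.15, 0.275) and Sec11c (-0.23, 0.178). TRAP then had 2 of 4 genes called lower and the signal peptidase 2 of 5. The 3 higher genes were Stt3b, Sec23a at 0.53 (0.0144) and Sec24b at 0.30 (0.0455).

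Some markers of other secretory cells also differed between groups. The 8 plasma cell markers summed to 7.45 to 13.4 CPM after 16 h, against 16.1 to 19.5 CPM after 4 h, with 1 of 5 tested genes called lower (Derl3, an ER degradation factor). Most of that gap lay in Derl3 (1.56 against 5.63 CPM) and Ighm (3.08 against 6.14 CPM, not called), and Jchain was lower too (0.827 against 1.53 CPM, not called). Igkc and Igha overlapped between groups, and Ighg2b, which was not tested, was higher after 16 h (0.608 against 0.396 CPM). Of the defining genes of plasma cells, Tnfrsf17 was at 0 in all libraries and Mzb1 did not exceed 0.209 CPM. The 8 pancreatic acinar markers summed to 5.60 to 8.44 CPM after 16 h, against 17.9 to 28.8 CPM after 4 h. Nearly all of that sum was Cela1 (-1.77 ± 0.21, edgeR adjusted p = 0.000337), the 1 acinar gene tested, and Prss2, Cpb1 and Amy2a5 were at 0 in all libraries. The 6 stellate cell markers summed to 127 to 192 CPM, against 167 to 249 CPM after 4 h, with Col1a1 and Col3a1 called lower although the sums overlapped. The other stellate markers were not called. Dcn, the most abundant (0.11 ± 0.15), and Reln (0.07 ± 0.24) lay above 0, and Lrat (-0.42 ± 0.24) and Des (-0.54 ± 0.21) below it. The sums of Kupffer, sinusoidal endothelial, bile duct and neutrophil markers overlapped between groups too. The part of these cells in the falls was not tested.

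Of the other genes of ER entry, N-glycosylation and ER-Golgi traffic, 117 were found in the tables and 115 were tested. Of these, 8 (6.96%) were higher and 15 (13.0%) lower after 16 h, against 9.18% and 9.51% of all tested genes, with a median log2 fold change of 0.06. Without replicate 3 of the 4 h fast, 16 were called higher and 14 lower. Genes were called lower in 6 of the 7 groups by role, some of them in 1 gene only. Genes called higher were in targeting and insertion, dolichol-linked sugar assembly, and COPII assembly and cargo receptors. Outside the rule for named genes, and named after their values were seen, Emc9, Tusc3, Alg6, Ergic1 and Tmed3 were also lower and Mia3 and Gosr2 also higher, with edgeR adjusted p between 0.0267 and 0.0495. Each of these 7 lost its call when any 1 of the 16 h libraries was left out (edgeR adjusted p = 0.0619 to 0.181).

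The other subunits of the oligosaccharyltransferase were lower in 4 of 6 cases (66.7%, against 9.51% of all tested genes), with a median of -0.54. None was higher (0 by DESeq2, 0 at an unadjusted p under 0.05). Without replicate 3 of the 4 h fast, 3 were called lower. Tmem258, a small subunit that both enzyme forms share, had 13.4, 15.2 and 15.5 CPM after 16 h, against 23.0, 26.9 and 37.2 CPM after 4 h (-0.98 ± 0.17, edgeR adjusted p = 0.00248), with the groups well apart. Krtcap2, a subunit of the STT3A form, had 18.0, 27.6 and 20.3 CPM, against 31.0, 37.6 and 48.2 CPM after 4 h (-0.83 ± 0.19, edgeR adjusted p = 0.014). Magt1, an oxidoreductase subunit of the STT3B form, had 65.7, 72.8 and 64.8 CPM, against 80.7, 98 and 103.4 CPM after 4 h (-0.47 ± 0.12, edgeR adjusted p = 0.0181). Magt1 and its catalytic partner Stt3b therefore differed in sign. Antisense exons cover 15.7% of Krtcap2. Krtcap2 lost its call without 16 h replicate 1 or 3 (0.0512 and 0.0629), and Magt1 without 16 h replicate 1 or 3 or 4 h replicate 2 (0.0784, 0.0886 and 0.0506).

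In targeting and insertion, 2 of 20 genes rose and 2 fell (20.0% called, near the 18.7% of all tested genes). Without replicate 3 of the 4 h fast, 5 were called higher and 2 lower. Tram1, a membrane protein beside the channel, had 88.9, 97.9 and 89.5 CPM after 16 h, against 139.0, 154.5 and 141.3 CPM after 4 h (-0.65 ± 0.10, edgeR adjusted p = 0.0015), and its paralog Tram2 had 28.7, 34.2 and 33.4 CPM, against 19.8, 19.2 and 13.6 CPM after 4 h (0.87 ± 0.15, edgeR adjusted p = 0.0023). The TRAM paralogs thus moved in opposite directions, with no overlap between groups in either, and both calls held without any 1 library. Srpr, the SRP receptor subunit that docks the particle, was higher (0.41 ± 0.11, edgeR adjusted p = 0.0262), a call lost without 16 h replicate 1, 2 or 3 (0.0566, 0.0995 and 0.101).

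**Figure D5:**
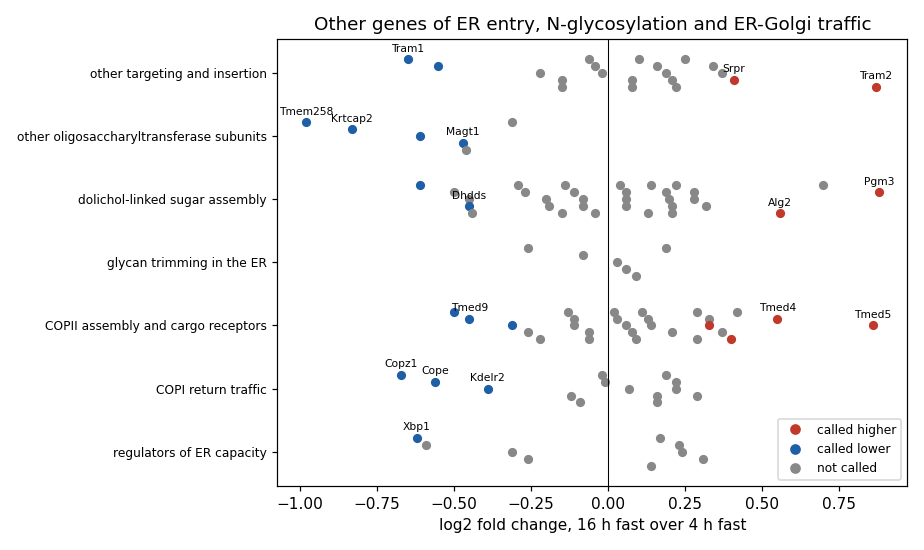
Log2 fold change, 16 h over 4 h fast (x axis), of 115 other tested genes of the pathway in 7 groups by role (y axis). Each point is a gene, blue where called lower, red where called higher and grey where it did not pass the test. The other oligosaccharyltransferase subunits all lie below 0, and Tram2, Pgm3 and Tmed5 lie farthest above it.

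Assembly of the dolichol-linked sugar, the donor for the oligosaccharyltransferase, gave 2 higher and 2 lower of 32 genes (12.5% called, against 18.7% of all tested genes). Without replicate 3 of the 4 h fast, 3 were called higher and 2 lower. Pgm3, which makes a nucleotide sugar precursor, was higher (0.88 ± 0.19, edgeR adjusted p = 0.00867), although antisense exons cover 28.3% of it. Alg2, a mannosyltransferase, was higher (0.56 ± 0.16, edgeR adjusted p = 0.0285), and Dhdds, a subunit of the enzyme that builds dolichol, was lower (-0.45 ± 0.12, edgeR adjusted p = 0.0248). Nus1, its partner subunit and the most abundant gene of this group, gave 0.28 ± 0.11 (edgeR adjusted p = 0.0825). The call of Alg2 was lost without 16 h replicate 1, 2 or 3 (0.0569, 0.118 and 0.0727), and that of Dhdds without 16 h replicate 1, 2 or 3 or 4 h replicate 2 (0.0781, 0.0556, 0.125 and 0.0934).

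Among 28 COPII assembly factors and cargo receptors, 4 (14.3%) rose and 3 (10.7%) fell, against 9.18% and 9.51% of all tested genes. DESeq2 called 7 higher and 2 lower, and edgeR without replicate 3 of the 4 h fast called 6 higher and 2 lower. Tmed5, a p24 cargo receptor, had 233.8, 282.4 and 279.7 CPM after 16 h, against 147.6, 134.2 and 156.0 CPM after 4 h, and was 1.82-fold higher (0.86 ± 0.12, edgeR adjusted p = 0.000612). Tmed4, of the same family, had 88.1, 87.4 and 95.5 CPM, against 61.7, 62.8 and 60.3 CPM after 4 h (0.55 ± 0.10, edgeR adjusted p = 0.0029). Both had groups far apart and kept their call without any 1 library. Tmed9, another p24 gene, was lower (-0.45 ± 0.13, edgeR adjusted p = 0.0288), which was lost without 16 h replicate 1, 2 or 3 (0.0966, 0.109 and 0.0934). Mia2, part of the machinery for bulky cargo and the most abundant of the group, gave 0.33 ± 0.12 (edgeR adjusted p = 0.0847).

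The regulators of ER capacity gave 1 called gene of 9 (11.1%, against 18.7% of all tested genes). Xbp1, a transcription factor of the unfolded protein response, had 157.6, 173.8 and 168.0 CPM after 16 h, against 259.1, 241.8 and 264.7 CPM after 4 h (-0.62 ± 0.10, edgeR adjusted p = 0.00205), with no overlap and the call kept without any 1 library. These counts do not separate its spliced from its unspliced form. Hspa5, the main ER chaperone, had 776.1, 735.1 and 667.6 CPM, against 761.5, 967.8 and 885.8 CPM after 4 h, and the groups overlapped (-0.26 ± 0.12, edgeR adjusted p = 0.157). Without replicate 3 of the 4 h fast, Creb3 and Creb3l3 were also called higher (edgeR adjusted p = 0.0181 and 0.0361) and Ern1 lower (0.0493), genes named here after their values were seen.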

How the data were processed

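Per the submitters' processing notes and the labels, reads were trimmed with Trimmomatic, checked with FastQC, aligned with STAR to GRCm38 (mm10) and counted per gene with HTSeq, and DESeq2 served the authors' own comparison. The strand setting, annotation release and versions of these tools are not given in the sources used. Raw counts per gene were deposited, 1 table per library, with 5 summary lines that name no gene (no feature 6.44% to 7.14%, ambiguous 5.78% to 6.59% of tallied reads) and stayed out of library sizes. Of 55471 identifiers, 55230 were found in GENCODE M21, which gave symbols, positions and lengths.

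The test was edgeR's (version 4.0.16, R 4.3.3; filterByExpr, TMM factors, robust quasi-likelihood fit with the fast as its only term, 2-sided p, Benjamini-Hochberg adjustment over 13812 genes, threshold 0.05). The SE is the log2 fold change divided by the root of F. CPM used TMM-scaled library sizes. The biological coefficient of variation was 14.3%. Libraries of 1 group differed beyond sampling noise (chi-square per degree of freedom 17.33 to 68.49), so each counted as 1 animal, as the design's 3 mice per group imply. Intervals cover the spread between these libraries only, and reads carry no molecular identifiers.

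All 36 members are named. Of other pathway genes, up to 3 called genes per group with the smallest adjusted p and at least 10 CPM in the higher group are named, with the most abundant gene, and any other is said to be chosen later. The members and lists were chosen with earlier results of these data known. Alternatives comprised other scalings, DESeq2 1.42.0, other filters, a replicate block and leaving out each library, and, added after the data were seen, an offset for each library's lowess trend (span 0.3) on log2 transcript length, using the transcript with the longest coding sequence. Exon overlap is given where it reaches 15%. Promoters came from RefSeq (GRCm38.p6). Spcs3, Ssr2, Srp19, Srp68, Sec11c and Sec61a1 had no matched window.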

Additional observations from a re-analysis of the deposited data

How the results depend on the processing

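Among the 36 genes, the 3 called higher and 13 called lower were called alike by DESeq2, without a low-count filter and with at least 10 counts in every library. DESeq2 size factors in the edgeR fit lost Ssr4 (edgeR adjusted p = 0.051), and library totals alone lost Sec24b. Leaving out 1 library gave 0 to 3 called higher and 5 to 12 called lower, against 671 to 1594 and 696 to 1393 of all genes, and 4 to 16 and 4 to 14 of the other pathway genes. Of these fits, those without a 16 h library gave the fewest calls and that without 4 h replicate 3 the most over all genes. With transcript-length correction 14 of the 115 other pathway genes were called higher and 13 lower, against 1466 and 1341 of all 13812 tested genes. Signs changed only for genes that were not called. Sec24d was -0.015 with library totals alone. With length correction, Sec63 was -0.0017, Spcs1 0.12, Sec13 0.055, Sec24d -0.037 and Sar1b 0.13. With 1 library left out, Srp68 lay between -0.018 and 0.15, Srprb between -0.17 and 0.03, Spcs1 between -0.17 and 0.041, Sec13 between -0.2 and 0.028, Sec24a between -0.13 and 0.032, Sec24d between -0.075 and 0.094 and Sar1b between -0.16 and 0.022. The causes were not tested. The labels number the replicates alike in both groups but name no pairs. Same-numbered deviations correlated at 0.088, 0.093 and 0.045, and differently numbered ones at -0.138 to 0.066. The same number was the best match for 16 h replicates 1 and 2, while 16 h replicate 3 correlated best with 4 h replicate 1 (0.066). These low values do not decide the question, and the numbers were not taken as pairs. A replicate block gave 1352 genes higher and 1396 lower, with 3 and 13 of the 36. No share of a paralog changed sign under any alternative run, and their exact tests cannot go below p = 0.1, or 0.25 with the block. At the lowest depth 1 read was worth 0.0644 CPM, and the 36 genes had at least 223 counts in every library. Counting error of single genes was not compared with their spread between livers.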

Other observations

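Traffic back from the Golgi to the ER, carried by the COPI coat, had 3 of 14 tested genes lower after the 16 h fast. That is 21.4%, against 9.51% of all tested genes. With none called higher by edgeR, the share called in either direction was also 21.4%, near the 18.7% of all tested genes. DESeq2 called none higher either, and 1 was higher at an unadjusted p under 0.05. The median log2 fold change was 0.03. Copz1, a small coat subunit, had 82.3, 82.1 and 87.4 CPM after 16 h, against 118.7, 130.0 and 153.5 CPM after 4 h, without overlap (-0.67 ± 0.12, edgeR adjusted p = 0.00256), and its call held without any 1 library. Cope, another coat subunit, gave -0.56 ± 0.16 (edgeR adjusted p = 0.0346), and Kdelr2, a receptor that returns escaped ER proteins, gave -0.39 ± 0.12 (edgeR adjusted p = 0.0371). Both calls were lost without 16 h replicate 1, 2 or 3, with adjusted p of 0.0950, 0.134 and 0.0825 for Cope and 0.157, 0.106 and 0.0820 for Kdelr2, and that of Kdelr2 also without 4 h replicate 2 (0.0617). Arf1, the GTPase that starts COPI assembly and the most abundant of these genes, gave -0.02 ± 0.10. Glucose and mannose trimming of the attached sugar in the ER had 0 of 6 genes called by edgeR, against 18.7% of all tested genes. DESeq2 called 0 too, and 1 was lower at an unadjusted p under 0.05. The most abundant trimming gene, Ganab, the catalytic subunit of glucosidase II, gave 0.06 ± 0.10, with a 95% interval of -0.16 to 0.29.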
